A study of Mus musculus with 4 samples.

Results

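The 10 genes described here encode transferrin, its receptors, ferrireductases and importers of ferrous iron. They are Tfrc and Tfr2 (the receptors), Trf (transferrin, the ligand), Steap3, Steap2, Steap4 and Cybrd1 (the ferrireductases), and Slc11a2, Slc39a14 and Slc39a8 (the importers). They were taken by symbol from a deposited table of 55487 genes, and all 10 were found and passed the filter on low counts, Cybrd1 through the WT libraries alone. The libraries hold poly(A) RNA of whole liver tumours (hepatocellular carcinoma) from 4 mice, 2 labelled Tfrc knockout (KO) and 2 labelled wild type (WT). The series title places the knockout in Alb-cre H11-myc mice, in which an albumin promoter drives Cre recombinase in hepatocytes and Myc expressed from the H11 locus gives liver tumours. Whether the WT mice also carried Cre, the age and sex of the mice and the deleted exons are not given in the sources used here. Each library is 1 animal.

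Transferrin is made by hepatocytes and carries ferric iron in plasma. Transferrin receptor 1, the product of Tfrc, takes it up by endocytosis; in the acid endosome the iron is released, reduced by a STEAP ferrireductase and passed into the cytosol by a ferrous iron channel or carrier. Hepatocytes can also take up iron that is not bound to transferrin, for which the ZIP carrier encoded by Slc39a14 is the known route in mouse liver. Iron supply controls Tfrc mRNA itself: iron regulatory proteins bind hairpins in its tail, the iron-responsive elements, and protect it from decay when iron is low.

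Library totals lay between 15918349 and 17052943 counts, so a floor of 3 counts stood for 0.176 to 0.188 CPM (counts scaled to the size of the library). Values below are CPM scaled with TMM factors, which adjust for the make-up of each library. The WT 2 tumour stood apart on the first principal component (48.2% of the variance), at 86.6, against -37 and -38.5 for KO 1 and KO 2 and -11.2 for WT 1. The mitochondrial share of counts was 9.8% in KO 1 and 16.63% in KO 2, against 8.69% in WT 1 and 4.13% in WT 2, each with a 95% Wilson interval within 0.018 percentage points of it on either side, and its part in the results was not tested. All 8 hepatocyte markers were counted, led by Alb and Ttr. Their summed level was 34069 CPM in KO 1 and 31152 CPM in KO 2, against 13279 CPM in WT 1 and 44890 CPM in WT 2, so the WT tumours lay on either side of the tumours labelled KO. Alb, the marker of highest level, had the order of the sum, at 21874 and 16813 CPM in KO 1 and KO 2. It had 5376 and 29461 CPM in WT 1 and WT 2. Ttr did not, at 3640 and 4884 CPM in KO 1 and KO 2, against 1626 and 3989 CPM in WT 1 and WT 2. In bulk tissue, fewer cells of a type and less RNA per cell cannot be told apart.

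None of the 10 genes passed the threshold of 0.05 between the tumours labelled KO and the WT tumours in edgeR's quasi-likelihood test with Benjamini-Hochberg adjustment. In the same test 0 of 16310 genes passed (0%), with 1354 genes (8.3%) at an unadjusted p under 0.05. DESeq2 called 150 genes (0.92%) and limma-voom called 1 (0.00613%), in each case with 0 of the 10 among them. Of the 10 genes, 6 had a negative and 4 a positive log2 fold change, with a median of -0.20, against a median of 0.01 over all genes tested. Steap3 had an unadjusted p under 0.05 with lower values in the tumours labelled KO, where 4.35% of all genes reached that level on the lower side. Cybrd1 did too, but having passed the filter only through the group where it is high it had to differ in that direction, so its p and its separation are given as description only. The libraries did not overlap for 3 genes that were lower (Steap3, Slc11a2 and, with this limit, Cybrd1) and 1 that was higher (Steap4), while 20.1% of all genes tested separated downward and 21.9% upward. For 7 of the 10 genes the 2 WT tumours differed from each other by a larger factor than the 2 tumours labelled KO did.

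**Figure D1:**
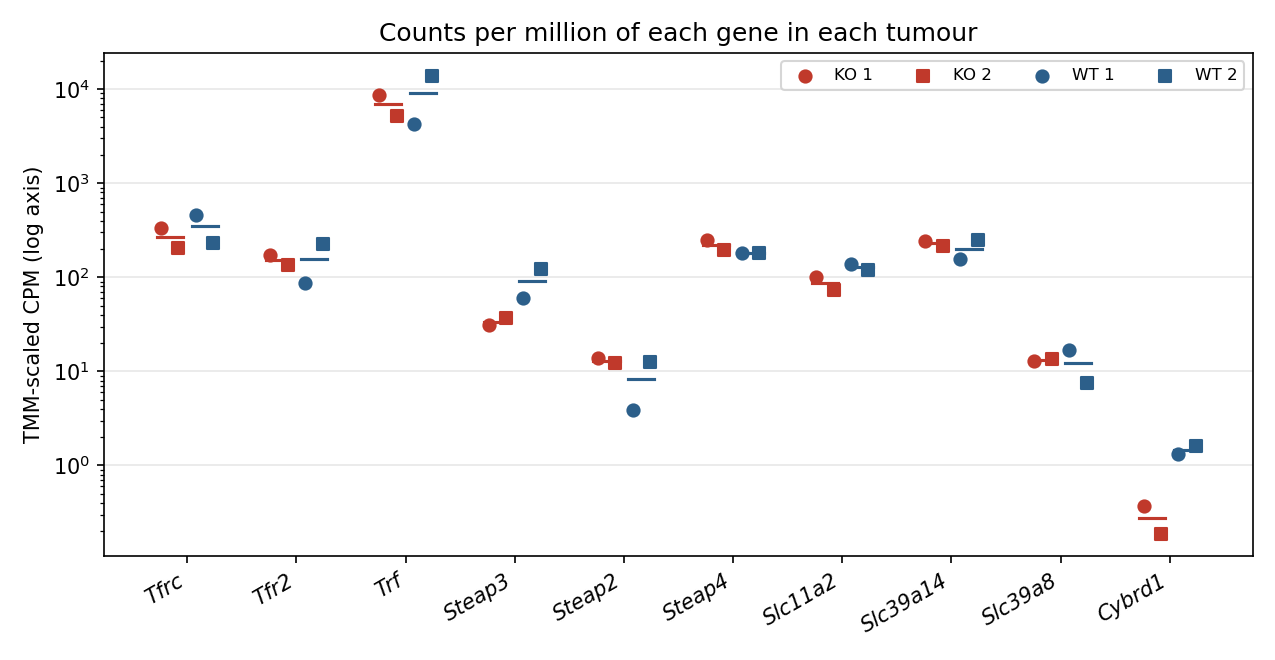
TMM-scaled CPM on a log axis for each of the 10 genes in KO 1, KO 2, WT 1 and WT 2 (points), with a bar at each group mean. Steap3, Slc11a2 and Cybrd1 have both KO points below both WT points, Steap4 has both above, and the other 6 genes overlap; Trf is far above the rest.

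Tfrc encodes the receptor that the study set out to delete. In all, 4 hairpins of the iron-responsive kind were found in the tail of its transcript, shown here because they are the sites through which iron supply is known to set the amount of Tfrc mRNA. A script searched the transcript strand for the loop CAGTGN with A, C or T as its last base, 5 paired bases on either side, an unpaired C next to that stem on its 5′ side, and 3 more pairs below. The 4 sites lie in the 3′ UTR of the gene (GRCm38, plus strand), are printed as DNA from GENCODE M21 transcripts, and have the 6 loop bases in capitals. No other motif was searched.
Tfrc site at chr16:32631222-32631244: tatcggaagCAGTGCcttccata
Tfrc site at chr16:32631601-32631623: tatcgggagCAGTGTcttccata
Tfrc site at chr16:32631666-32631688: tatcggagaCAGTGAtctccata
Tfrc site at chr16:32631713-32631735: tatcgggaaCAGTGTttcccata
The sites share their outer bases and differ within the upper stem. Of 21901 protein-coding genes searched, 19 (0.09%) held such a match. A match is a description of the letters and not evidence that a protein binds there.

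Tfrc (ENSMUSG00000022797, chromosome 16, 32608920 to 32632794) had 334 CPM in KO 1 and 205 CPM in KO 2, against 460 CPM in WT 1 and 234 CPM in WT 2. The groups overlapped, since KO 1 lay above WT 2, and both tumours of a group differed by a factor of 1.63 in KO and 1.96 in WT. The groups differed by -0.37 on the log2 scale, KO over WT (SE 0.45, 95% interval -1.44 to 0.71, edgeR adjusted p = 0.833), and by -0.79 without KO 1, -0.05 without KO 2, 0.16 without WT 1 and -0.77 without WT 2. The count over the whole gene thus did not separate the labels, and which exons and which cells its reads came from was not tested. Each direction given here is that of the libraries labelled KO. Of 8 proliferation markers, all counted and led by Mki67 and Mcm6, 4 were lower in both libraries labelled KO, as were 20.1% of all genes tested. Mki67 overlapped between the groups (log2 fold change 0.16), and Mcm6 was lower in both libraries labelled KO (-1.26). The summed level of the 8 markers was 830 and 784 CPM in KO 1 and KO 2, against 1163 and 888 CPM in WT 1 and WT 2. Erythroid cells carry much Tfrc, and of 11 erythroid markers 10 were found, with 6 lower in both libraries labelled KO. The erythroid sum was 213 and 152 CPM in KO 1 and KO 2, against 957 and 2174 CPM in WT 1 and WT 2, led by the globin genes Hba-a1 and Hbb-bt. The part of either list in the Tfrc counts was not tested.

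The order of Tfrc over the 4 libraries, WT 1 above KO 1, then WT 2 and KO 2, was close to that of Zeb2, Ppara and Msl2. These were the 3 genes nearest to it among 10535 genes with a mean of at least 5 CPM, with a root mean square difference of 0.036, 0.049 and 0.069 in centred log2 CPM over 4 libraries. With so few libraries such likeness is common, and 289 genes lay within 0.25 of Tfrc.

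Tfr2 encodes the other transferrin receptor, which hepatocytes use mainly to sense plasma iron. It (ENSMUSG00000029716, chromosome 5, 137569840 to 137587481) had 171 CPM in KO 1 and 135 CPM in KO 2, against 87.1 CPM in WT 1 and 228 CPM in WT 2. Both libraries labelled KO lay between the WT tumours. Tfr2 had a log2 fold change of -0.04 (SE 0.48, 95% interval -1.17 to 1.09, edgeR adjusted p = 0.982), with -0.61 without WT 1 and 0.81 without WT 2. Per kilobase of merged exons, the Tfr2 level was 0.73 and 0.943 times that of Tfrc in KO 1 and KO 2, against 0.27 times in WT 1 and 1.39 times in WT 2. Tfr2 was thus the more abundant receptor transcript in 1 tumour of the 4, WT 2.

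Trf, the transferrin gene (ENSMUSG00000032554, chromosome 9, 103204001 to 103230444), was the most abundant of the 10 in every library. It had 8737 CPM in KO 1 and 5134 CPM in KO 2, against 4256 CPM in WT 1 and 13832 CPM in WT 2. The WT tumours were the lowest and the highest of the 4, a factor of 3.25 apart. Between the groups its log2 fold change of -0.38 (SE 0.78, 95% interval -2.22 to 1.46, edgeR adjusted p = 0.903) was within this spread, and became -1.03 without WT 1 and 0.71 without WT 2. Trf, Tfr2, Slc39a14 and the summed hepatocyte markers ran in the same order over the libraries. It went from WT 2 down through KO 1 and KO 2 to WT 1. Alb, the hepatocyte marker of highest level, ran in this order too, while Ttr, the next, was highest in KO 2. The part of hepatocyte RNA content in this was not tested. The genes nearest to Trf in pattern were Eepd1, Pemt, which encodes a phospholipid methyltransferase of the liver, and Slc46a3, at root mean square differences of 0.010, 0.075 and 0.092 over 4 libraries. A read-through gene, Gm20425, shares 2108 exon bases with Trf on the same strand and is absent from the deposited genes, so it has no counts there. No source used here says how reads shared by both were counted.

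Steap3 encodes the endosomal ferrireductase that serves the transferrin cycle in red cell precursors in the mouse. It showed the clearest separation of the abundant genes in this family. Steap3 (ENSMUSG00000026389, chromosome 1, 120190757 to 120272705) had 30.8 CPM in KO 1 and 36.6 CPM in KO 2, against 60.2 CPM in WT 1 and 124 CPM in WT 2. The libraries labelled KO lay close together and below both WT tumours, which differed from each other by a factor of 2.06. Steap3 had a log2 fold change of -1.45 (SE 0.41, 95% interval -2.41 to -0.49), with an unadjusted p of 0.00923 and an edgeR adjusted p of 0.545. Without WT 1 it was -1.92 with an edgeR adjusted p of 0.0165, in a fit that called 2.38% of the genes tested, and without WT 2 it was -0.84 with an adjusted p of 0.316. The DESeq2 adjusted p was 0.0909.

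Markers of several other cell types separated in the same direction as Steap3, as did 20.1% of all genes tested. All 8 macrophage markers, led by C1qb and C1qa, were lower in both libraries labelled KO, with a summed level of 425 and 290 CPM in KO 1 and KO 2, against 776 and 1024 CPM in WT 1 and WT 2. Kupffer cells are the macrophages that reside in liver. Only 2 of their 8 markers were lower in both, close to the share of all genes tested. Their sum, led by Cd5l and Clec4f, was 15.8 and 25.2 CPM in KO 1 and KO 2, against 20 and 171 CPM in WT 1 and WT 2. No macrophage or Kupffer cell marker was at 0 in all 4 libraries. Erythroid markers, whose sums stand beside Tfrc above, were also lower in both libraries labelled KO for 6 of the 10 found. Of 7 stellate cell markers, led by Col1a1 and Col3a1, 5 were lower in both, with a sum of 465 and 786 CPM in KO 1 and KO 2, against 1080 and 906 CPM in WT 1 and WT 2. Of 7 endothelial markers, led by Cdh5 and Pecam1, 4 were lower in both, with a sum of 98.3 and 79.8 CPM in KO 1 and KO 2, against 135 and 153 CPM in WT 1 and WT 2. Other lists did not go this way. Among 6 T cell markers, led by Cd4 and Lck, 2 were higher in both libraries labelled KO and 0 lower. Among 6 bile duct markers, led by Spp1 and Sox9, 1 was higher in both and 0 lower. Of all genes tested, 21.9% separated upward. Cd4 and Lck overlapped between the groups, with log2 fold changes of -1.02 and 0.51. The part of any of these cells in the counts of Steap3, or of Slc11a2 and Cybrd1, which separated in the same direction as Steap3, was not tested. The genes nearest to Steap3 in pattern were Tmem37, Tle6 and Acmsd, at root mean square differences of 0.052, 0.104 and 0.108 over 4 libraries.

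Steap4 and Steap2, unlike Steap3, had positive log2 fold changes, apart from that of Steap2 without WT 1. Steap4, a ferrireductase and cupric reductase gene (ENSMUSG00000012428, chromosome 5, 7960457 to 7982213), had 249 CPM in KO 1 and 197 CPM in KO 2, against 180 CPM in WT 1 and 183 CPM in WT 2. The libraries labelled KO lay above both WT tumours, by a small margin for KO 2. Its log2 fold change of 0.30 was about the size of its error (SE 0.31, 95% interval -0.44 to 1.04, edgeR adjusted p = 0.801). Steap4 was the least variable of the 10, with a factor of 1.38 between its highest and lowest library. Human neutrophils also carry Steap4, and 5 of 8 neutrophil markers were lower in both libraries labelled KO, as were 20.1% of all genes tested. The neutrophil sum, led by Csf3r and S100a9, was 13.1 and 14.1 CPM in KO 1 and KO 2, against 24.1 and 66.9 CPM in WT 1 and WT 2. Ly6g, a defining marker, was at 0 in all 4 libraries. The part of neutrophils in the Steap4 counts was not tested.

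Steap2, a STEAP family gene on the same chromosome (ENSMUSG00000015653, 5664829 to 5694578), had 13.8 CPM in KO 1 and 12.2 CPM in KO 2, against 3.92 CPM in WT 1 and 12.7 CPM in WT 2. WT 1 alone was low, and the other libraries were alike. The log2 fold change of 0.65 (SE 0.57, 95% interval -0.70 to 2.00, edgeR adjusted p = 0.76) was -0.0042 without WT 1 and 1.73 without WT 2.

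Cybrd1 encodes duodenal cytochrome b, the ferrireductase of the gut surface, and was close to the detection limit. Counts of Cybrd1 (ENSMUSG00000027015, chromosome 2, 71117923 to 71142926) were 6 in KO 1 and 3 in KO 2, against 24 in WT 1 and 25 in WT 2. All 4 values were low, those labelled KO lay below those of WT, and KO 2 was at the floor of 3 counts. The gene entered the test only through its WT counts, so the direction and p given next are a description and no evidence of a difference. Its log2 fold change was -2.35 (SE 0.74, 95% interval -4.10 to -0.61), with an unadjusted p of 0.0154 and an edgeR adjusted p of 0.547. It was between -2.93 and -1.96 when each library was left out in turn, and DESeq2 gave no adjusted p for it. All 6 enterocyte markers were found in the table, with Sis and Cdx2 at 0 in all 4 libraries. Their sum was 5972 and 2893 CPM in KO 1 and KO 2, against 1954 and 7603 CPM in WT 1 and WT 2, nearly all of it from Apoa4, which mouse liver also makes, with Fabp2 next.

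The importers are the last step into the cytosol. Slc11a2 encodes divalent metal transporter 1, the carrier that moves iron out of the transferrin endosome. It (ENSMUSG00000023030, chromosome 15, 100387898 to 100425072) had 100 CPM in KO 1 and 73.5 CPM in KO 2, against 137 CPM in WT 1 and 120 CPM in WT 2. Both libraries labelled KO were below both WT tumours. Slc11a2 had a log2 fold change of -0.56 (SE 0.31, 95% interval -1.30 to 0.18, edgeR adjusted p = 0.648), negative in each fit without a library, from -0.83 to -0.35. The transcript form, Slc11a2-205, is known for a hairpin in its 3′ UTR with an extra base in its stem, and the strict search had no match in it. With 1 extra base allowed in the 3′ arm, a rule added after the strict search was seen, 29 genes (0.13%) held a match, and the Slc11a2 site is shown for comparison with those of Tfrc.
Slc11a2 site at chr15:100395155-100395178, minus strand: catcagagcCAGTGTgtttctatg
The counts are per gene, so the forms of Slc11a2 with and without this hairpin were not told apart.

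Slc39a14 encodes ZIP14, the hepatocyte importer of iron not bound to transferrin. It (ENSMUSG00000022094, chromosome 14, 70303469 to 70351425) had 246 CPM in KO 1 and 217 CPM in KO 2, against 156 CPM in WT 1 and 248 CPM in WT 2. WT 2 was level with KO 1, and WT 1 was the low library. Slc39a14 had a log2 fold change of 0.20 (SE 0.35, 95% interval -0.64 to 1.04, edgeR adjusted p = 0.887), with -0.14 without WT 1. Its order over the libraries was that of the summed hepatocyte markers and of Alb, but not that of Ttr. The part of hepatocyte RNA in the Slc39a14 counts was not tested. Slc39a8, which encodes the related importer ZIP8 (ENSMUSG00000053897, chromosome 3, 135825279 to 135888572), had 12.8 CPM in KO 1 and 13.4 CPM in KO 2, against 16.9 CPM in WT 1 and 7.47 CPM in WT 2. The WT tumours lay on either side of the libraries labelled KO. Its log2 fold change was 0.11 (SE 0.47, edgeR adjusted p = 0.96), with 0.78 without WT 1 and -0.36 without WT 2.

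**Figure D2:**
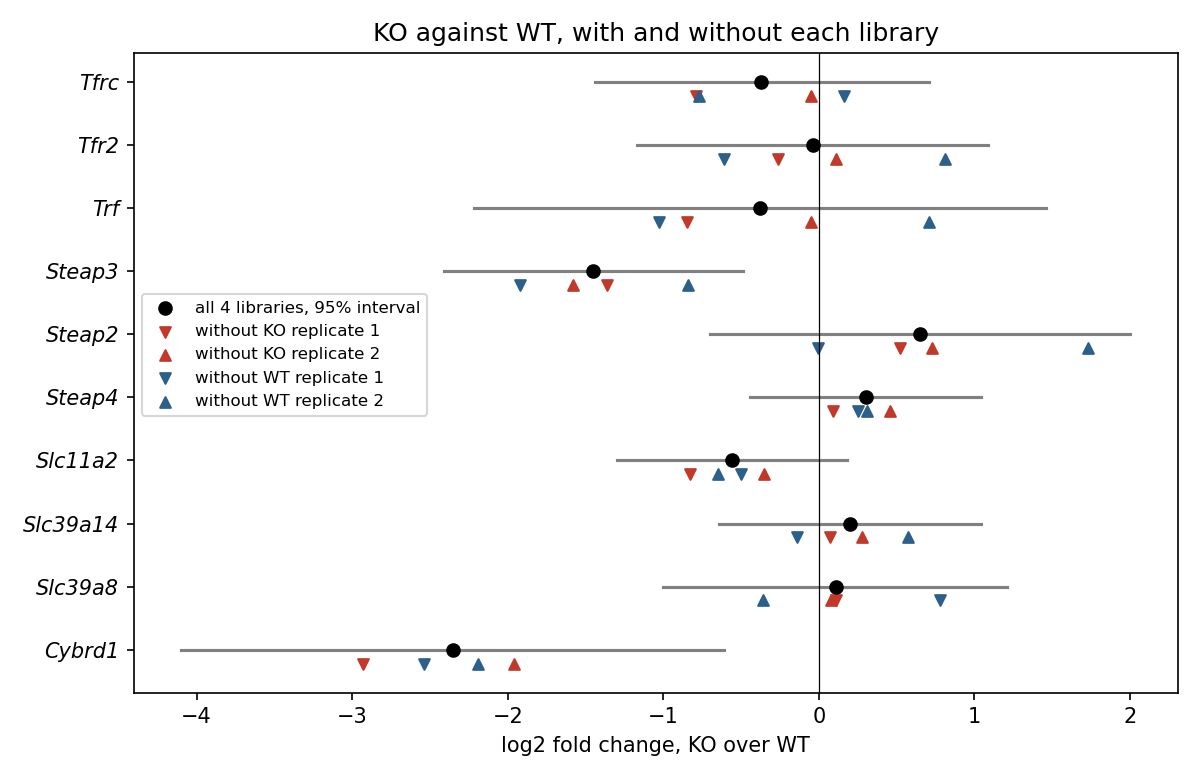
Log2 fold change, KO over WT, of the 10 genes (black points) with 95% intervals (bars), and the values without each library (triangles). The intervals of Steap3 and of Cybrd1, which passed the filter only through WT, lie below 0 before adjustment for all genes tested, and Tfrc, Tfr2, Trf, Steap2, Slc39a14 and Slc39a8 have values on both sides of 0.

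Levels of different genes can be compared only per length, and the length matters here. The deposited FPKM of the 10 genes rests on the sum of all distinct annotated exons, in which overlapping exons of different transcript forms count more than once. That held, within 1%, for 97.8% of 14357 genes with at least 10 counts in each library and a GENCODE M21 model. For Steap2 this length was 33994 bases, against 12144 bases of merged exons, a factor of 2.8, while for Steap4 and Cybrd1 the lengths were the same. For Tfr2 the factor was 2.04 and for Tfrc 1.58. The deposited FPKM therefore places Tfr2 at 0.567 and 0.732 times Tfrc in KO 1 and KO 2, against 0.21 and 1.08 times in WT 1 and WT 2.

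Per kilobase of merged exons, Trf was the highest of the 10, from 1282 to 4166 CPM per kilobase over the 4 libraries. Steap4 followed at 57 to 78.9 CPM per kilobase, Tfrc at 33.1 to 74.3 and Tfr2 at 20.1 to 52.6, and each of these ranges overlapped the next. Slc39a14 lay at 14.8 to 23.5, Slc11a2 at 11.6 to 21.5 and Steap3 at 5.39 to 21.7 CPM per kilobase, again with overlapping ranges. Slc39a8 lay at 0.975 to 2.2 and Steap2 at 0.323 to 1.14, and Cybrd1 was lowest at 0.0354 to 0.304 CPM per kilobase. With the length behind the FPKM, Slc11a2 and Slc39a14 changed places. Among the ferrireductase transcripts, Steap4 was thus above Steap3 in each library by this measure.

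**Figure D3:**
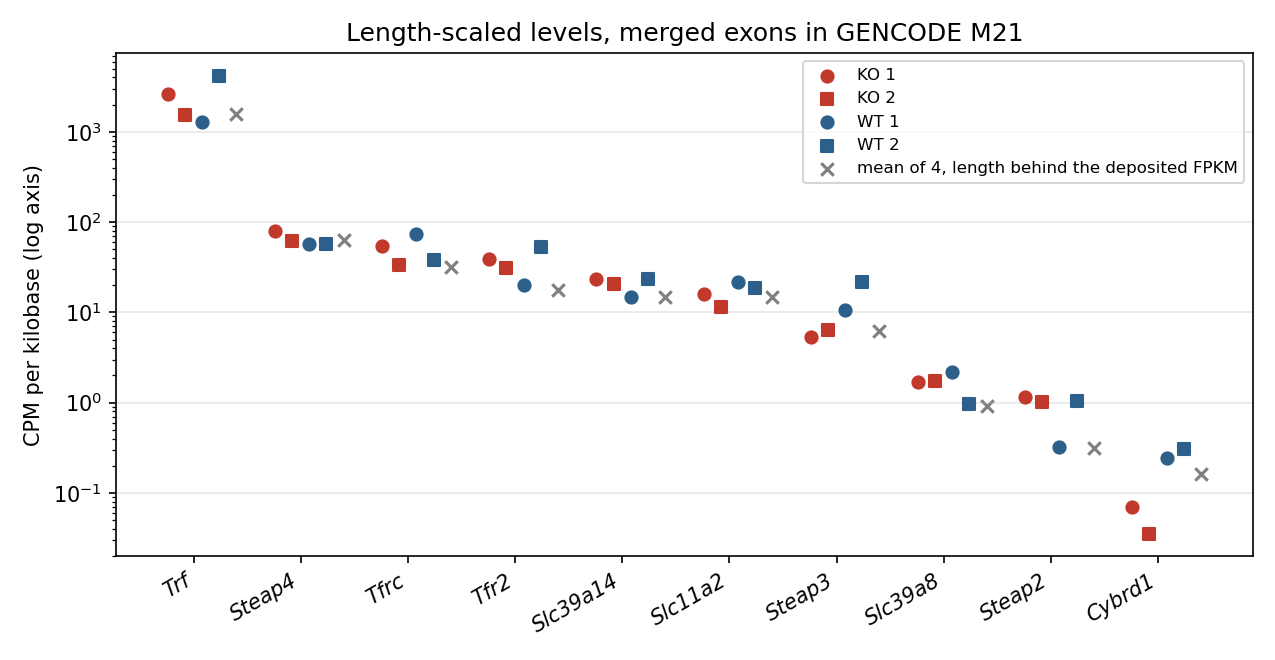
CPM per kilobase of merged exons on a log axis for the 10 genes, ordered by their mean, in KO 1, KO 2, WT 1 and WT 2 (points). Crosses give the mean of the 4 libraries with the length behind the deposited FPKM, which is lower by a factor of 2.8 for Steap2 and equal for Steap4 and Cybrd1.

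Ratios of transcripts inside a library do not depend on the scaling factor, and 5 were computed. Those of Steap3 to Steap4 and of Trf to Tfrc were not in the plan and were added to it. The level of Steap3 per kilobase of merged exons was 0.0683 and 0.103 times that of Steap4 in KO 1 and KO 2, against 0.185 and 0.376 times in WT 1 and WT 2. The level of Slc39a14 was 1.47 and 1.77 times that of Slc11a2 in KO 1 and KO 2, against 0.687 and 1.25 times in WT 1 and WT 2. These 2 ratios did not overlap between the groups. For Steap3 to Steap4 this follows from the levels above, since Steap3 was lower and Steap4 higher in both libraries labelled KO. In the other ratio Slc11a2 was separated by itself and Slc39a14 was not. The ratios of Tfr2 to Tfrc, Slc39a14 to Tfrc and Trf to Tfrc overlapped between the groups. Trf was 48.8 and 46.7 times Tfrc in KO 1 and KO 2, against 17.2 and 110 times in WT 1 and WT 2, so the libraries labelled KO were alike and the WT tumours far apart. With 2 libraries against 2, the smallest two-sided p of an exact permutation test is 0.333, and the ratios carry no test.

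**Figure D4:**
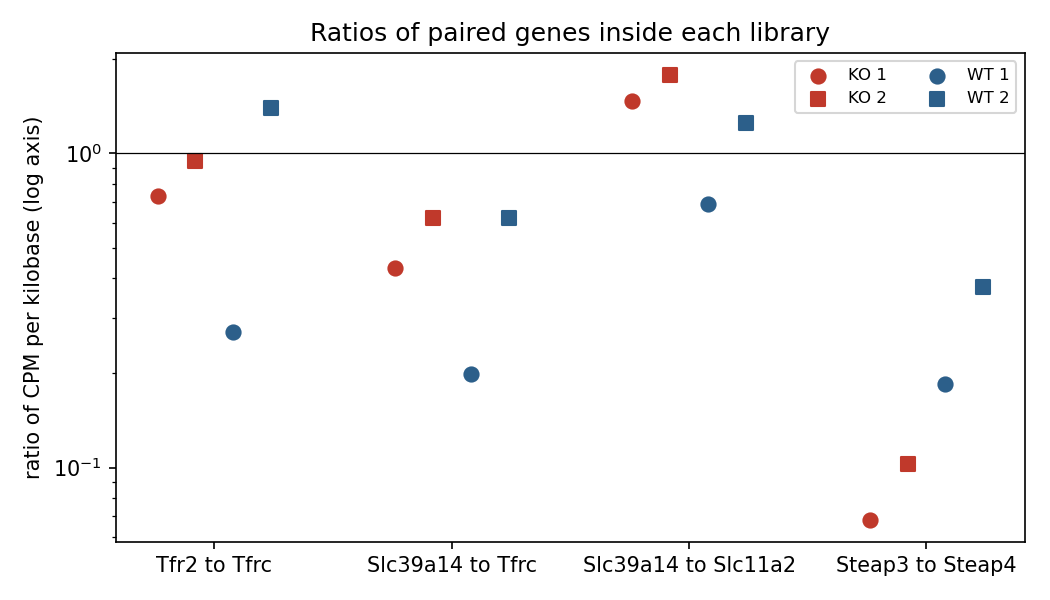
Ratio of CPM per kilobase of merged exons (log axis) for 4 pairs of genes inside KO 1, KO 2, WT 1 and WT 2. Slc39a14 to Slc11a2 is higher, and Steap3 to Steap4 lower, in both libraries labelled KO, while WT 1 is the lowest for Tfr2 to Tfrc and Slc39a14 to Tfrc.

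The genes around this pathway were read from 5 lists with 57 genes in the table, of which 55 were tested. By edgeR 0 of them passed, 6 (10.9%) had an unadjusted p under 0.05, against 8.3% of all genes, and DESeq2 called 1 (1.82%), Slc39a4, against 0.92% of all genes. Partners of the transferrin cycle move the receptor through clathrin pits and endosomes. They had 8 positive and 6 negative log2 fold changes among 14 tested (median 0.10, against 0.01 over all genes). Of these 14, 2 were separated upward and 3 downward, while 21.9% of all genes tested separated upward and 20.1% downward. Lmtk2, a kinase gene of recycling endosomes, had 30.4 and 25.2 CPM in KO 1 and KO 2, against 17.3 and 15.5 CPM in WT 1 and WT 2 (edgeR adjusted p = 0.606). Hfe, whose product binds transferrin receptor 1 and is needed to sense iron, had 34.5 and 14.7 CPM in KO 1 and KO 2, against 36.2 and 55.3 CPM in WT 1 and WT 2 (edgeR adjusted p = 0.636). Ap2m1, a subunit of the clathrin adaptor, had a log2 fold change of -0.62, and Picalm, a clathrin assembly gene, one of 0.32.

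Regulators of Tfrc mRNA had 2 positive and 4 negative log2 fold changes among 6 tested, with a median of -0.19. Ireb2, which encodes iron regulatory protein 2, had 71.4 and 68.6 CPM in KO 1 and KO 2, against 63.3 and 34 CPM in WT 1 and WT 2 (edgeR adjusted p = 0.702). The groups did not overlap, and WT 2 was the low library. Rc3h1 and Zc3h12a, which encode the RNA decay factors Roquin-1 and Regnase-1, had log2 fold changes of -0.56 and -0.39. Rc3h2, the other Roquin gene, had 529 and 117 counts in KO 1 and KO 2, against 54 and 2 in WT 1 and WT 2, a factor of 251 between the highest and lowest library in CPM (log2 fold change 3.67, SE 1.19, edgeR adjusted p = 0.547). Without WT 1 its log2 fold change was 7.15. Rc3h2 entered that fit only through the libraries labelled KO, where it is high, so this value is given as description only.

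The other routes of iron uptake had 3 positive and 8 negative log2 fold changes among 11 tested, with a median of -0.18. Cd163, the haemoglobin receptor of macrophages, had 0.925 and 1.01 CPM in KO 1 and KO 2, against 0.817 and 5.13 CPM in WT 1 and WT 2, so WT 2 alone was high. Lcn2, the siderophore carrier lipocalin 2, had 1119 and 1114 CPM in KO 1 and KO 2, against 979 and 2680 CPM in WT 1 and WT 2. Slc46a1, a haem and folate carrier gene, and Timd2, a ferritin receptor gene in the mouse, had log2 fold changes of -0.52 and 0.38.

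Genes for the use and release of imported iron had 7 positive and 6 negative log2 fold changes among 13 tested, with a median of 0.11. Of these 13, 5 were separated upward and 2 downward, while 21.9% of all genes tested separated upward and 20.1% downward. Slc25a37, the mitochondrial iron importer mitoferrin 1, had 54.3 and 82.7 CPM in KO 1 and KO 2, against 31.6 and 38.8 CPM in WT 1 and WT 2 (edgeR adjusted p = 0.562). Ncoa4, which delivers ferritin for breakdown, had 25.5 and 15.8 CPM in KO 1 and KO 2, against 12.5 and 4.81 CPM in WT 1 and WT 2 (edgeR adjusted p = 0.606). Slc40a1, the exporter ferroportin, had 64.7 and 56.8 CPM in KO 1 and KO 2, against 111 and 126 CPM in WT 1 and WT 2 (edgeR adjusted p = 0.547). Alas1, the first enzyme of haem synthesis, had a log2 fold change of -0.56 (edgeR adjusted p = 0.664).

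Of the genes for use and release of iron, 3 share the strict hairpin with Tfrc but carry it in the 5′ UTR, where iron regulatory proteins are known to block translation instead of decay. They are printed to set their arms beside those of Tfrc.
Fth1 site at chr19:9982735-9982757, plus strand: ctgcttcaaCAGTGCttgaacgg
Ftl1 site at chr7:45459782-45459804, minus strand: ttgcttcaaCAGTGTttgaacgg
Slc40a1 site at chr1:45925468-45925490, minus strand: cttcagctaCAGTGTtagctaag
The ferritin arms are alike and differ from those of Tfrc. Fth1, the ferritin heavy chain gene, had 627 and 554 CPM in KO 1 and KO 2, against 516 and 1086 CPM in WT 1 and WT 2. Ftl1, the light chain gene, had 692 and 847 CPM in KO 1 and KO 2, against 698 and 1724 CPM in WT 1 and WT 2. In both, WT 2 alone was high and the groups overlapped, with edgeR adjusted p values of 0.805 and 0.74.

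Among 11 other tested genes of the ZIP family, to which Slc39a14 and Slc39a8 belong, 4 had positive and 7 negative log2 fold changes (median -0.13). Slc39a4, the zinc importer ZIP4 of the gut, had 113 and 90.3 CPM in KO 1 and KO 2, against 257 and 345 CPM in WT 1 and WT 2. Both libraries labelled KO were well below both WT tumours. Slc39a4 had a log2 fold change of -1.57 (SE 0.34, 95% interval -2.37 to -0.76, unadjusted p = 0.00248, edgeR adjusted p = 0.545), and DESeq2 gave it an adjusted p of 0.00471. Slc39a3 had a log2 fold change of -0.39. Slc39a9 had 6.91 and 6.31 CPM in KO 1 and KO 2, against 9.64 and 33.4 CPM in WT 1 and WT 2, and shares 459 exon bases with Erh on the opposite strand. Slc39a2 had 31 and 60 counts in KO 1 and KO 2, against 3 and 14 in WT 1 and WT 2, and shares 151 exon bases with Mettl17 on the same strand, so the counts of both are uncertain.

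**Figure D5:**
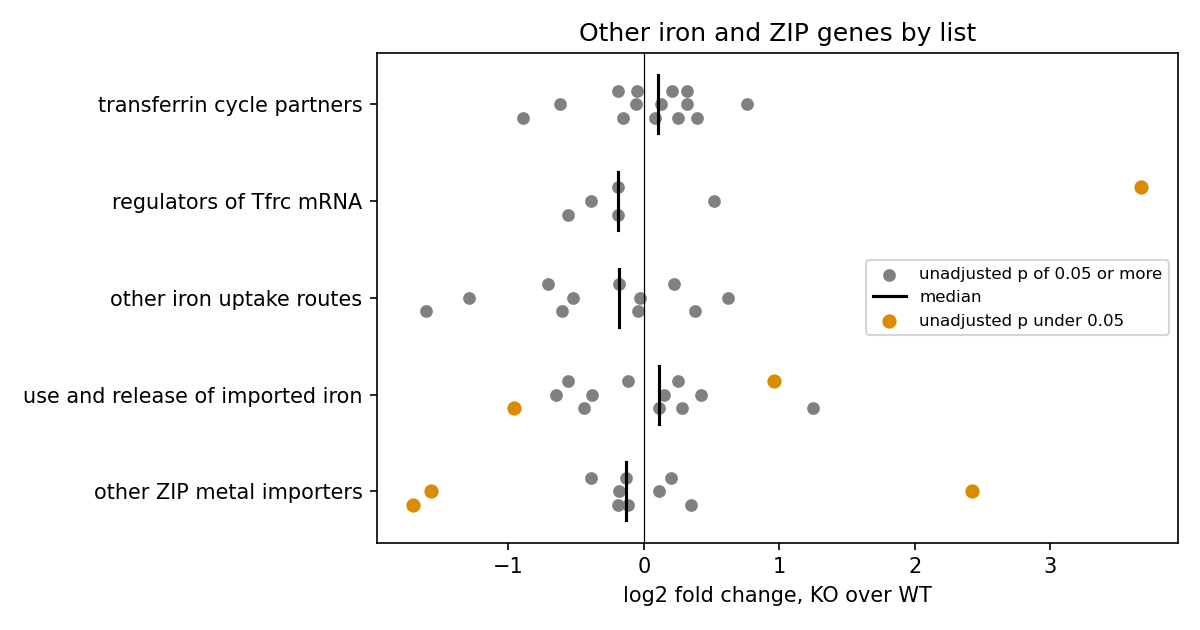
Log2 fold change, KO over WT, of the tested genes of 5 lists (points, with an unadjusted p under 0.05 in orange) and the median of each list (bar). The medians lie between -0.19 and 0.11, and the point far to the right is Rc3h2 at 3.67.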

How the data were processed

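The authors deposited 1 table with raw counts and FPKM per gene for all 4 libraries. Per the submitters' processing notes the build was mm10 and the tools were HISAT2, StringTie, SAMtools 1.3.1 and edgeR, with no roles stated; no source used here states the strandedness. The counts per gene, as deposited, were whole numbers. The FPKM, as deposited, equalled the count scaled by a fixed length per gene and the library total for 100% of genes with at least 10 counts in each library, within 1%, and was used only to compare levels between genes. Symbols came from GENCODE M21 for 55141 of the identifiers, with equal spans for 99.4% of them.

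Low genes were removed with filterByExpr, which left 16310. TMM factors scaled the counts, and edgeR 4.0.16 tested them (quasi-likelihood, two-sided, Benjamini-Hochberg, threshold 0.05) in R 4.3.3; SE and 95% intervals come from that fit. With 2 libraries a group, the spread is pooled over genes. The alternatives included DESeq2 1.42.0 and limma-voom (limma 3.58.1). Each fit without a library assumes that the lone sample of its group varies like the other group. The gene fit was tested on simulated counts with the same fixed spread for every gene, which was not estimated from these libraries. That test does not show how the fit performs on tumours as variable as these. The hairpin search was tested on a made-up hairpin. Floors cover counting error only.

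The genes and lists were chosen with earlier results of these data known. All 10 genes are named. From each list of other iron genes up to 4 tested genes with the smallest unadjusted p are named, and from the marker lists described the 2 genes of highest level and those at 0. The 3 genes most alike in pattern exclude predicted, clone and RIKEN names. Fth1 and Ftl1 were named after their values were seen.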

Additional observations from a re-analysis of the deposited data

How the results depend on the processing

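Of 109 alternative values for the 10 genes, 98 kept their direction and their side of the threshold, 10 changed sign and 1 passed the threshold. That 1 was Steap3 without WT replicate 1 (-1.92, edgeR adjusted p = 0.0165), which also moved the number of the 10 genes called from 0 to 1; over the fits without 1 library it ranged from 0 to 1. Among the 98 is Cybrd1 in DESeq2, which gave no adjusted p for it, and this was counted as not passing. Of the changes of sign, 7 came from leaving out a library. Over those fits the log2 fold change ranged from -0.79 to 0.16 for Tfrc, -0.61 to 0.81 for Tfr2 (with 0.11 without KO replicate 2), -1.03 to 0.71 for Trf, -1.92 to -0.84 for Steap3, -0.0042 to 1.73 for Steap2, 0.09 to 0.46 for Steap4, -0.83 to -0.35 for Slc11a2, -0.14 to 0.57 for Slc39a14, -0.36 to 0.78 for Slc39a8 and -2.93 to -1.96 for Cybrd1. Tfr2, near 0, was also positive with library totals (0.0045), limma-voom (0.10) and the replicate block (0.11). The cause of these changes was not tested.

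Over all genes, 0 were called higher and 0 lower by edgeR on all 4 libraries. DESeq2 called 65 higher and 85 lower, limma-voom 1 lower, library totals 1 lower, and the fit with the replicate block 2 higher and 2 lower. Leaving out 1 library gave 0 to 209 higher and 0 to 200 lower, with both largest values without WT replicate 1. The numbers of the libraries are shared between groups only as numbers; deviations of same-numbered libraries correlated at 0.121 across 16310 genes. Cybrd1 was not tested at a mean of 5 CPM and is limited by its depth. Against the order by CPM per kilobase of the length behind the FPKM, 2 of the 10 genes changed rank with merged exon length, a setting not planned. With the deposited FPKM 0 did, but it rests on that same length, so this is no separate check. The hairpin search found 4 sites in the 10 genes, 4 with 1 unpaired position allowed and 5 with 1 extra base allowed.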

Other observations

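Among the listed genes counted in both tumours labelled KO, Hamp, which encodes the iron hormone hepcidin, differed most between those tumours. It was named after its values were seen. Hamp had 23.5 CPM in KO 1 and 520 CPM in KO 2, a factor of 22.1, against 506 CPM in WT 1 and 200 CPM in WT 2. Its log2 fold change was -0.38 (SE 1.14, edgeR adjusted p = 0.939). Tfr2, whose product takes part in the control of Hamp in mouse hepatocytes, differed by a factor of 1.26 between the same tumours labelled KO.

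Ltf, the lactoferrin gene of neutrophil granules, had 0 counts in KO 1 and KO 2, against 3 in WT 1 and 35 in WT 2, and did not pass the filter on low counts. The fit without WT replicate 1 gave log2 fold changes of 7.15 for Rc3h2, -1.80 for Slc39a4 and -2.37 for Slc39a9. Rc3h2 entered that fit only through the libraries labelled KO. Ltf entered it only through the lone WT 2 library, so its result there rests on that tumour. DESeq2 on all 4 libraries called Slc39a4, and the edgeR fits on all 4 libraries called none of the listed genes.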
